A study of Mus musculus with 5 samples.

Results

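The genes described here encode nucleoporins, the building blocks of the nuclear pore, and the receptors that carry cargo through it. They were taken by symbol: protein-coding genes named Nup, Xpo, Ipo or Tnpo with a digit after it, or Kpna or Kpnb with a digit. This gave 43 of the 21631 protein-coding genes of the RefSeq annotation on chromosomes 1 to 19 and X, and all 43 are accounted for below. They comprise 21 Nup, 7 Ipo, 6 Kpna, 5 Xpo, 3 Tnpo and 1 Kpnb genes. The list was proposed with results of these libraries known, so the values are given as a description.

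The samples were chromatin immunoprecipitation sequencing (ChIP-seq) libraries of mouse embryonic stem cells. H2AK119ub, a ubiquitin mark on a lysine of histone H2A, was profiled in DDX5 knockout cells and in wild-type cells. RYBP was profiled in wild-type cells, using an antibody sold against DEDAF, its alias. The wild-type line was MPI-II, and the knockout was derived from it as a single clone after cutting in exon 2 of Ddx5 with paired guides and a Cas9 nickase. Cells of both genotypes grew on feeder cells with serum, LIF and inhibitors of MEK and GSK3. Each of the 3 groups had 1 library, so differences between groups could not be checked against replicates and p-values were not computed. The deposited lists hold peak positions only, and the read depth is unknown. Intervals are 95% Wilson intervals and cover counting error only, treating genes or peaks as independent.

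Nuclear pores are rings of nucleoporins set in the nuclear envelope. Scaffold subunits form the outer and inner rings, and subunits rich in phenylalanine and glycine repeats line the channel. Importins bind cargo in the cytoplasm and release it when the GTPase Ran binds them in the nucleus, while exportins bind cargo together with Ran. H2AK119ub is placed by Polycomb repressive complex 1 (PRC1), mostly at silent developmental genes, and RYBP belongs to variant PRC1 complexes, which are known from CpG islands.

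The H2AK119ub lists held 20994 peaks in the knockout, with a median width of 1083 bp, and 24235 peaks in the wild type, with a median width of 1360 bp. The RYBP list held 9564 peaks with a median width of 1634 bp. Peaks on chromosome 8 were wider than elsewhere in each list. For RYBP the median width was 2046 bp there and 1606 bp on the other chromosomes. Ddx5 itself had no H2AK119ub peak within its gene or 2 kb flanks in either genotype and 2289 bp of RYBP, and Rybp carried the mark in both. Peak positions do not measure expression and do not check the genotype labels. Of 6 embryonic stem cell genes, Esrrb carried H2AK119ub in both genotypes, and Pou5f1, Nanog, Sox2, Zfp42 and Klf4 had no peak of the mark. Of 6 fibroblast genes, 5 carried it in the knockout and 5 in the wild type, and Col1a2 had none. How much chromatin of feeder cells contributed was not tested.

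Few nucleoporin and transport receptor genes carried H2AK119ub in either genotype. Their share with RYBP was not told apart from that of all protein-coding genes. A gene was counted when a peak overlapped the gene or the 2 kb on either side of it by at least 1 bp. In the DDX5 knockout the mark was found at 3 of 43 members, 6.98% (2.40% to 18.6%), against 23.6% of all protein-coding genes. In the wild type it was found at 2 of 43, 4.65% (1.28% to 15.5%), against 27.9% of all genes. RYBP was found at 20 of 43, 46.5% (32.5% to 61.1%), against 37.6% of all genes, and this interval spans the background. No peak of any library lay at 22 of 43 members, 51.2% (36.8% to 65.4%), close to the 52.8% of all genes. The members are long genes, with a median length of 50597 bp against 17329 bp for all protein-coding genes, so their windows are wider.

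**Figure D1:**
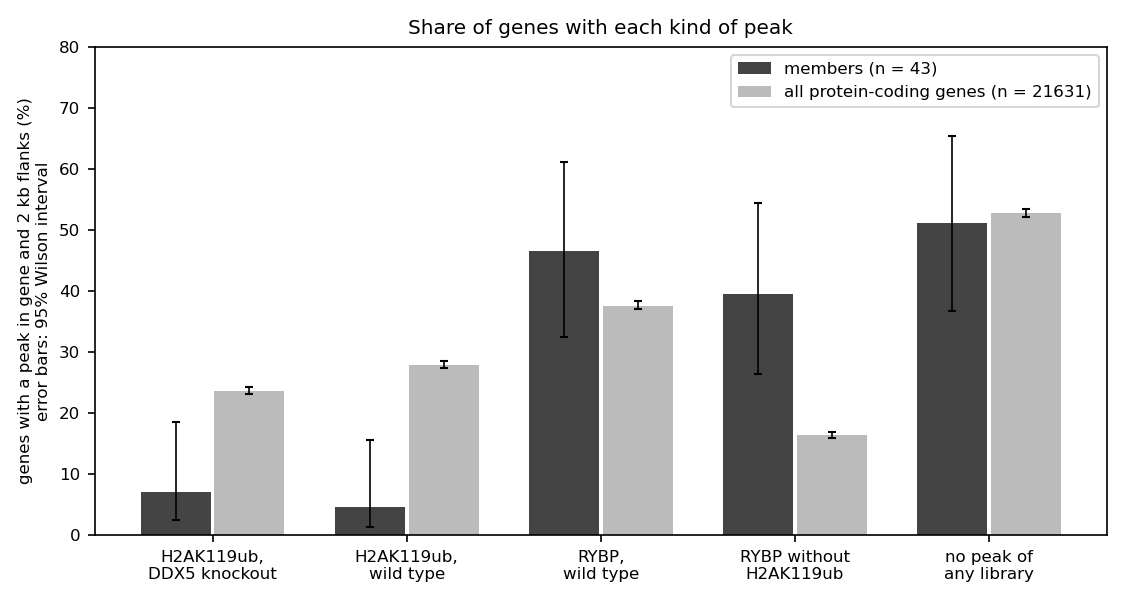
Share of genes with a peak in the gene and its 2 kb flanks (vertical axis, percent), for the 43 members (dark bars) and all 21631 protein-coding genes (light bars), by kind of peak; error bars are 95% Wilson intervals. The members' bars stand at 6.98% and 4.65% for H2AK119ub in the knockout and in the wild type, below those of all genes, and at 46.5% for RYBP.

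RYBP at these genes mostly lay apart from the mark. RYBP with no H2AK119ub in either genotype was found at 17 of 43 members, 39.5% (26.4% to 54.4%), against 16.4% of all protein-coding genes. RYBP and the mark in the same window, overlapping or not, were found at 3 of 43 members, 6.98%, against 21.3% of all genes. Of the 20 members with RYBP these 3 made up 15.0% (5.24% to 36%), whereas 56.5% (55.4% to 57.5%) of all protein-coding genes with RYBP carried the mark. Counted by peak, 2 of the 21 RYBP peaks at members overlapped H2AK119ub of either genotype, 9.52% (2.65% to 28.9%), against 50.6% of all RYBP peaks. That last share is over the whole list of 9564 peaks and was not limited to windows of genes, unlike the members' peaks.

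**Figure D2:**
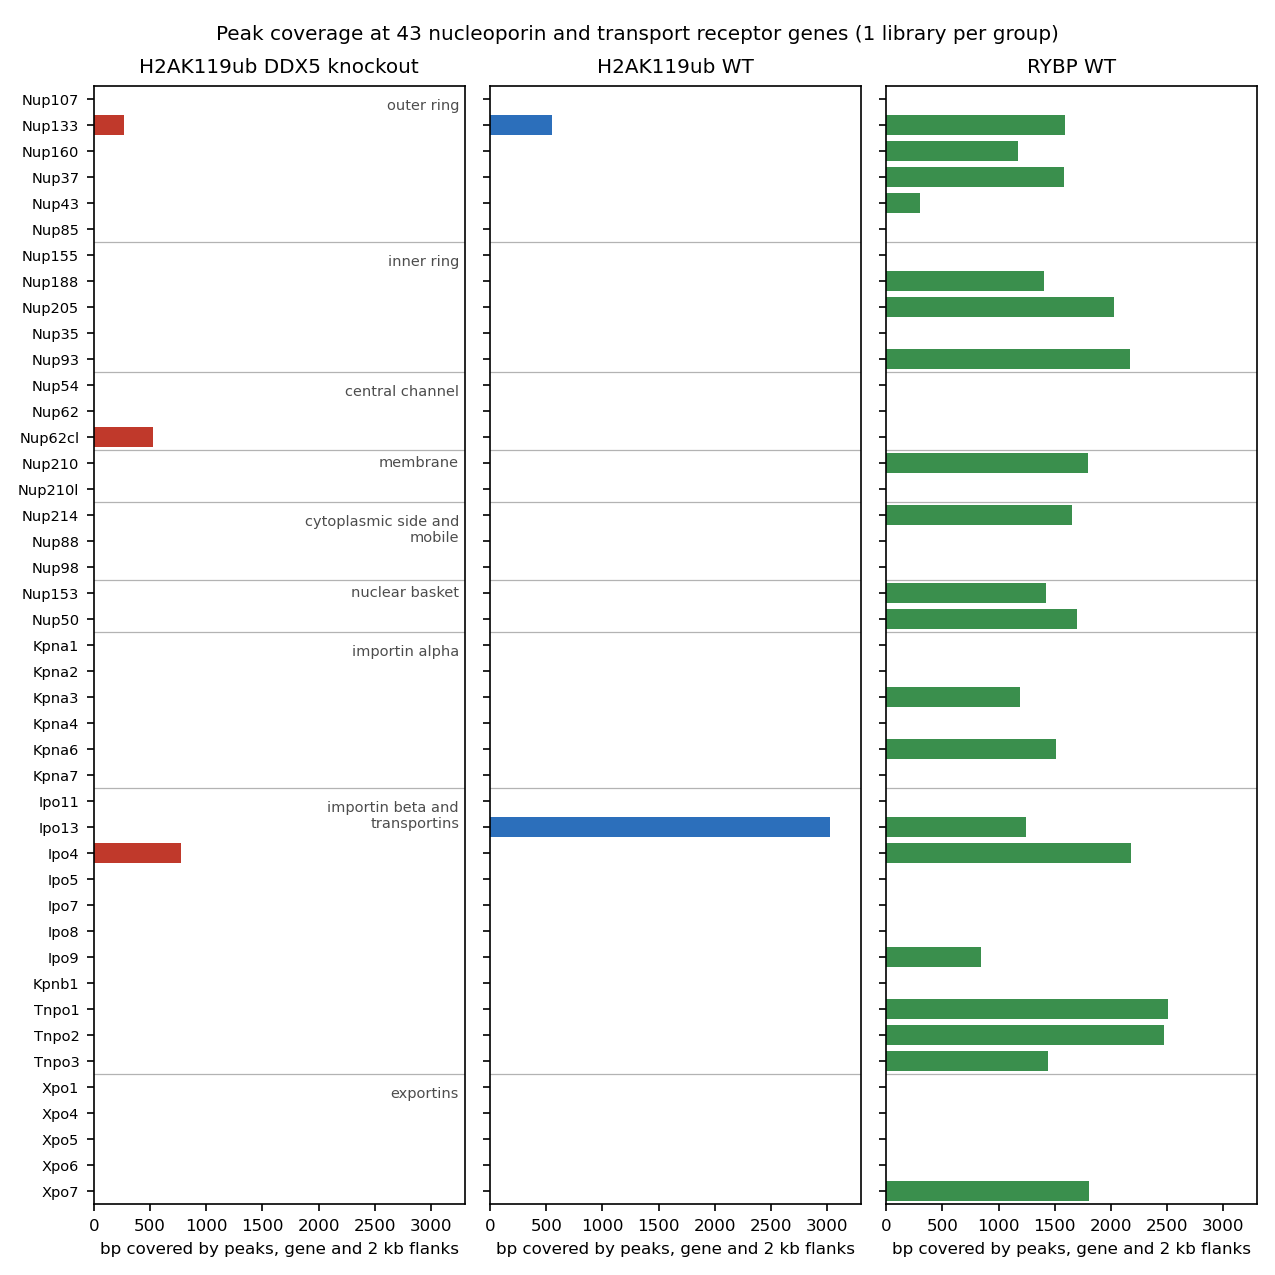
Base pairs covered by peaks in the gene and its 2 kb flanks (horizontal axes) for each of the 43 members, grouped by role, in the H2AK119ub library of the DDX5 knockout, the H2AK119ub library of the wild type and the RYBP library of the wild type, from left to right. Bars of H2AK119ub appear at 3 members in the knockout and at 2 in the wild type, and bars of RYBP at 20.

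The mark was present in at least 1 genotype at 4 of 43 members, 9.30% (3.68% to 21.6%), against 30.8% of all protein-coding genes, and each of the 4 is described in full. Across all protein-coding genes, 3.00% were marked in the knockout alone, 7.20% in the wild type alone and 20.7% in both; among members the counts were 2, 1 and 1. Counts this small do not set the genotypes apart. Over the members together, peaks covered 1571 bp in the knockout and 3578 bp in the wild type, a ratio of 0.439, beside a ratio of 0.667 over all protein-coding genes. Ipo13 alone gave most of the wild-type length. With peaks of at least 1 kb only, 1 member was marked in the knockout, Nup133, and 2 in the wild type. This limit removes a larger part of the knockout list, whose lower quartile of width was 802 bp, against 1010 bp in the wild type. The share of all protein-coding genes under the limit is not given here, so these counts do not compare the genotypes.

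Ipo13 (gene ID 230673, chromosome 4, 117893268 to 117915222) encodes an importin known to carry cargo in both directions. It was marked in the wild type alone. The knockout had 0 bp of the mark in its window, and its nearest knockout peak lay 8653 bp from the gene, whereas the wild type had 3024 bp in 3 peaks. One wild-type peak of 1179 bp ran over the annotated transcription start, from 24 bp before it to 1154 bp after it. The next, of 1630 bp, lay from 1211 to 2840 bp after that start. The start used lies 223 bp inside the upstream end of the gene, and neither peak reached that end. The remaining peak, of 1349 bp, lay past the far end of the gene and entered the window by 215 bp. RYBP was absent from the start of Ipo13. Its single RYBP peak there, of 1741 bp, lay 759 bp outside the far end, within 2 kb of an end of Dph2, a gene for an enzyme of diphthamide synthesis, and shared 714 bp with the wild-type H2AK119ub peak.

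Ipo4 (gene ID 75751, chromosome 14, 55625400 to 55635868) encodes an importin that in human cells carries histones. It was marked in the knockout alone, with 774 bp in the knockout and 0 bp in the wild type, whose nearest peak lay 6158 bp away under Rec8, a meiotic cohesin gene. The knockout peak lay inside the gene, 840 to 1613 bp after the start. A RYBP peak of 2180 bp ran over the start, from 1106 bp before it to 1073 bp after it, and shared 234 bp with the knockout peak. An end of Tm9sf1 lay within 2 kb of both peaks.

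Nup62cl (gene ID 279706, chromosome X, 140006802 to 140062707), a gene related to the C-terminal part of the channel nucleoporin Nup62, was the other member marked in the knockout alone. Its peak was 529 bp wide, lay 737 to 1265 bp after the start and was narrower than the lower quartile of knockout peaks, 802 bp. The Ipo4 peak, at 774 bp, was also below that quartile. The wild type had 0 bp at Nup62cl, and its nearest peak was 2885405 bp away. No RYBP peak lay in the window, and an end of Dnaaf6b lay within 2 kb of the knockout peak.

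Nup133 (gene ID 234865, chromosome 8, 123897114 to 123949265), an outer ring subunit that is required for neural differentiation in the mouse, was the only member with the mark in both genotypes. The knockout peak was 3858 bp wide and the wild-type peak 4309 bp wide, and all 3858 bp were shared. Both lay outside the far end of the gene, at 1733 bp in the knockout and 1447 bp in the wild type, and covered the start of Acta1, the skeletal muscle actin gene. They entered the Nup133 window by 268 and 554 bp. They also shared 1337 and 1502 bp with a RYBP peak under Acta1, which lay 4254 bp from Nup133 and outside its window. At the start of Nup133 itself lay a RYBP peak of 1590 bp and no H2AK119ub, so RYBP and the mark in this window did not overlap.

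The starts of these genes, where the annotation gives them, show the sequence under or beside the peaks. RefSeq promoters of GRCm38.p6 (the assembly of mm10) matched 34 of 43 members, and Kpna1, Kpna3, Kpna6, Nup210l, Nup35, Nup43, Nup85, Xpo4 and Xpo7 had no entry. Where a gene had several starts, the most upstream one was used. This start lay farthest inside the gene for Ipo5, Ipo8 and Nup210, 14354, 1464 and 1496 bp from its upstream end. It lay less far inside for other members, among them Ipo13, Ipo4 and Nup62cl, at 223, 184 and 139 bp. Part of the bases shown for each of them therefore lies within the annotated gene. The 250 bases before the start follow for Ipo13 (chr4:117915000-117915249, minus strand), which carried the mark over its start in the wild type, Ipo4 (chr14:55635685-55635934, minus strand), with RYBP over its start, and Nup62cl (chrX:140062569-140062818, minus strand), with neither. Each reads 5′ to 3′ along the gene, and capitals mark CpG dinucleotides, of which there are 28, 15 and 17.
Ipo13: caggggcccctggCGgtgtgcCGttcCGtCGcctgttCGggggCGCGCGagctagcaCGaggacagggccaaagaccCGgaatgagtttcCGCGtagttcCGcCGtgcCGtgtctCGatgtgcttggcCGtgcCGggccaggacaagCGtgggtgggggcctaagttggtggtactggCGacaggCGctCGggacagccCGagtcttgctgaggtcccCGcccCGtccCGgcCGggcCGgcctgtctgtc
Ipo4: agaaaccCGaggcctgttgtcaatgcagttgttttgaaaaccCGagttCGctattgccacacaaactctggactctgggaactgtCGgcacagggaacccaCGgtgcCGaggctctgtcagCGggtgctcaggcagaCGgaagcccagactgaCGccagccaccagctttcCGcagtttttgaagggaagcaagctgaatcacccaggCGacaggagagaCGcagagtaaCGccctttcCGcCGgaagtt
Nup62cl: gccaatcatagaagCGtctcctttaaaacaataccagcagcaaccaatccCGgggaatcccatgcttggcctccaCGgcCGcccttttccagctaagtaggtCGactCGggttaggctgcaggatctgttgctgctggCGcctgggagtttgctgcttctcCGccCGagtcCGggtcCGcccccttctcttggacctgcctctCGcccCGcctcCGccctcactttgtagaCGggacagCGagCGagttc

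Most RYBP peaks at members with a known start covered it, as RYBP peaks at genes did in general. Over the most upstream start, 14 of 34 members had a RYBP peak, 41.2% (26.4% to 57.8%), against 28.9% of 17274 protein-coding genes, which the interval spans. H2AK119ub lay over the start of 0 of 34 members in the knockout, for which 3 counts of 34 would be a share of 8.82% and the upper Wilson limit is 10.2%, against 5.63% of all genes. In the wild type it lay over 1 of 34, 2.94% (0.521% to 14.9%), against 7.45%. Of the 17 RYBP peaks at members with an annotated start, 15 covered a start of the member, 88.2% (65.7% to 96.7%), against 67.9% of 7749 pairs of a RYBP peak and a protein-coding gene counted the same way, a share that the interval spans. The exceptions were the peak at the far end of Ipo13 and the one at Nup160. The centres of the 17 peaks lay 3 to 35321 bp from the most upstream start, in either direction, with a median of 225 bp, and those of the 7749 pairs with a median of 415 bp. The 21 RYBP peaks were 841 to 2473 bp wide with a median of 1590 bp, near the 1634 bp of the whole list.

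**Figure D3:**
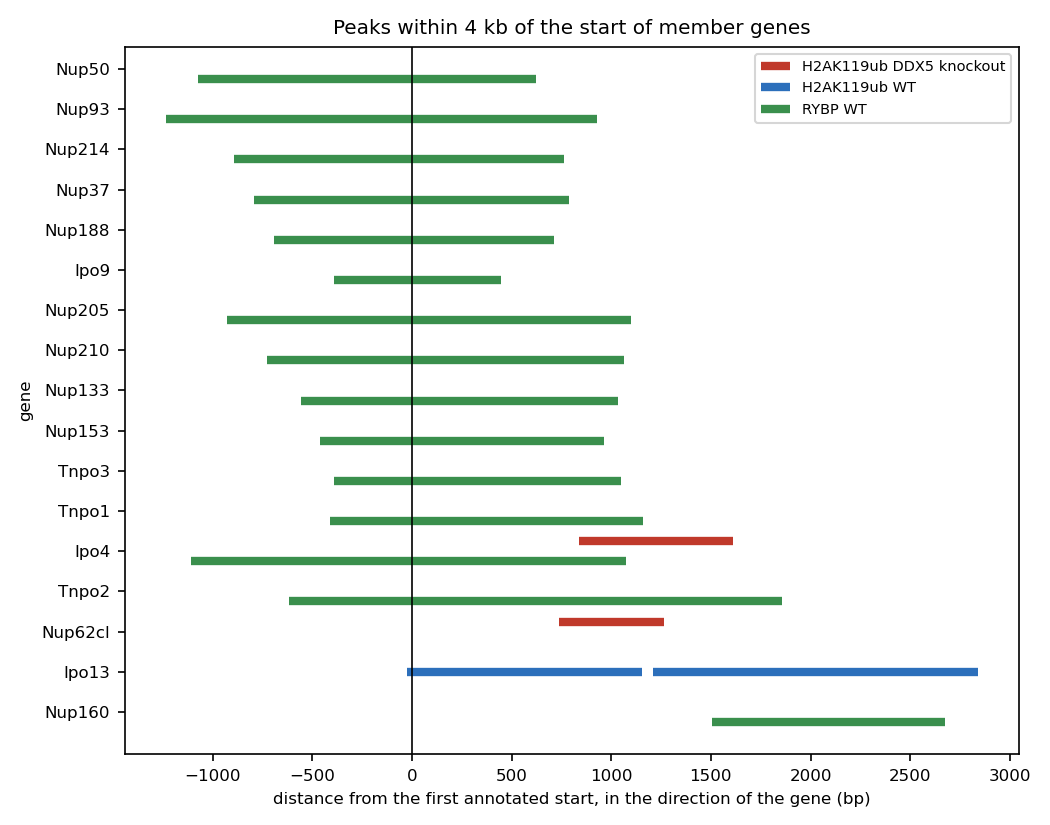
Extent of each peak lying within 4 kb of the most upstream annotated start (horizontal axis, bp in the direction of the gene) for members with a known start; bars are H2AK119ub in the DDX5 knockout, H2AK119ub in the wild type and RYBP in the wild type. RYBP bars of 14 members cross the start, as does 1 wild-type H2AK119ub bar at Ipo13, while the knockout bars at Ipo4 and Nup62cl lie 840 and 737 bp or more inside the gene.

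Among scaffold nucleoporins, RYBP was found at 4 of 6 outer ring genes and 3 of 5 inner ring genes, against 37.6% of all protein-coding genes. Counts over so few genes, here and in the roles that follow, are not told apart from that share. The outer ring, or Y complex, is built from Nup107, Nup133, Nup160, Nup85, Nup43 and Nup37 with further subunits. Nup37 had a RYBP peak of 1581 bp over its start, and the same peak covered the start of Parpbp. Nup160 had a peak of 1172 bp inside the gene, 1505 to 2676 bp after the annotated start. The peak counted for Nup43 lay 1697 bp outside that gene, entered its window by 304 bp, and covered the starts of Lats1, a Hippo pathway kinase gene, and Pcmt1. Nup107 and Nup85 had no peak of any library. In the inner ring, which ties the scaffold to the membrane, Nup93 had 2167 bp of RYBP, Nup205 had 2025 bp and Nup188 had 1403 bp, each over its start. The Nup188 peak also covered the start of Dolk, a gene of dolichol phosphate synthesis. Nup155 and Nup35 had none. Nup93 lies on chromosome 8 and Nup205 on chromosome 6.

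The other nucleoporins divided as well. Both nuclear basket genes had RYBP: Nup50 (1699 bp) and Nup153 (1425 bp), whose product is known to bind PRC1 in mouse embryonic stem cells. Nup214, which holds the export platform on the cytoplasmic face, had 1654 bp, while its partner Nup88 and the mobile nucleoporin Nup98 had none. Nup210, a membrane nucleoporin induced during muscle and neural differentiation, had 1794 bp over its start, and the same peak covered the start of Gm30364. Nup210l, the relative of Nup210 in the male germ line, had no peak of any library. None of the 3 central channel genes, Nup54, Nup62 and Nup62cl, had RYBP.

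Importins of the beta family and transportins had RYBP at 6 of 11 genes, against 37.6% of all protein-coding genes. The 3 transportin genes were among the 6, and so was Ipo13, whose RYBP peak lay past its far end. Tnpo1, the receptor for proline-tyrosine signals, had the most covered sequence of any member, 2510 bp in 2 peaks. One of 1573 bp lay over its upstream start and another of 937 bp over its internal start, 34853 to 35789 bp downstream. Tnpo2, its close paralog, had the widest RYBP peak of any member, 2473 bp, and lies on chromosome 8. The 3 members on that chromosome had peaks of 1590, 2167 and 2473 bp, and the other members' peaks had a median of 1577 bp. Tnpo3, which imports splicing factors rich in serine and arginine, had 1440 bp. Ipo9, an importin of histones H2A and H2B in human cells, had the narrowest peak, 841 bp. Kpnb1 (importin beta itself), Ipo5, Ipo7, Ipo8 and Ipo11 had no peak of any library.

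Importin alpha adaptors, which link classical signals to Kpnb1, had RYBP at 2 of 6 genes, and exportins at 1 of 5, also beside 37.6% of all protein-coding genes. Kpna6 had 1510 bp and Kpna3 1188 bp, each across a boundary of the gene. Kpna1, Kpna4 and Kpna7, the adaptor of oocytes and early embryos, had no peak, nor did Kpna2, which in mouse embryonic stem cells is known to carry the product of Pou5f1. Kpna2 lies 199444 bp from Ddx5. Xpo7 was the exportin with RYBP, in a peak 1803 bp wide inside the gene, and an end of Dok2 lay within 2 kb of that peak. Xpo1, the receptor of leucine-rich export signals, Xpo4, Xpo5, which exports microRNA precursors, and Xpo6, which exports actin, had no peak of any library.

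Most promoters of members were rich in CpG whether or not RYBP was called there. Over 300 bases, from 250 before the start to 50 after it, members with RYBP over the start held a median of 30.5 CpG dinucleotides (17 to 45, n = 14), and members without it 24.0 (4 to 47, n = 20), so the ranges overlapped. Among all protein-coding genes the medians were 25 with RYBP (n = 4998) and 7 without (n = 12276). When all 17274 genes were split at the quartiles of this count, RYBP lay over 1.29% of starts with 0 to 4 CpG, 19.1% with 5 to 14, 41.1% with 15 to 24 and 58.6% with 25 to 65. Members fell mostly in the upper classes. RYBP lay over 11 of the 20 starts in the highest class and over 3 of the 12 in the class below it, and over neither of the remaining members, Kpna7 and Nup160.

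**Figure D4:**
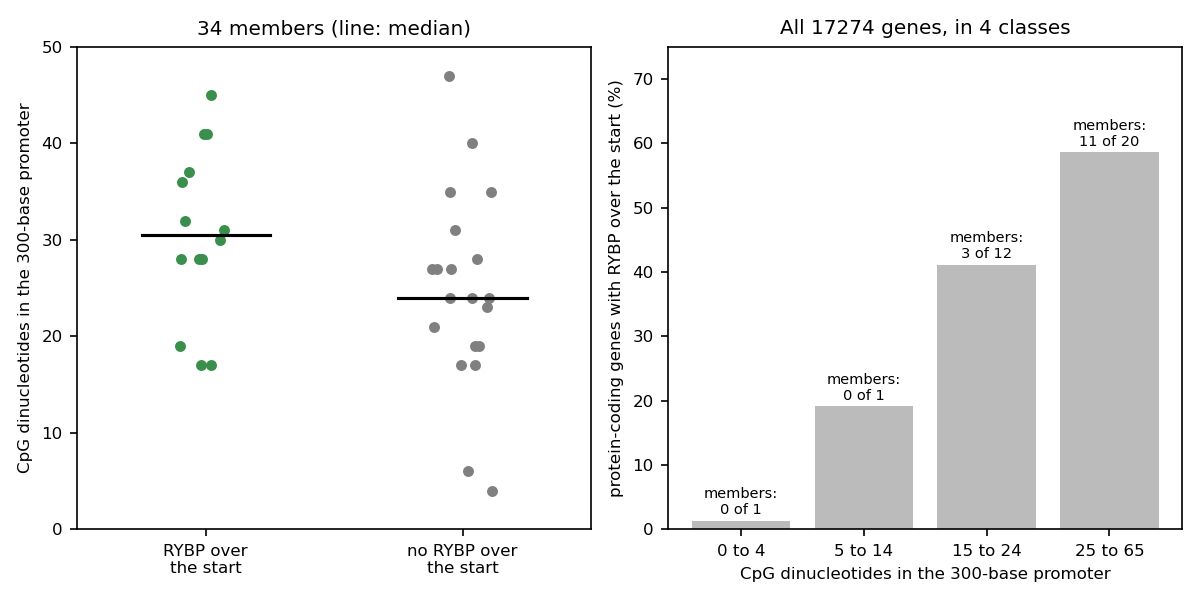
CpG dinucleotides in the 300-base promoter. Left, each of 34 members as a point, with RYBP over the start or without it (horizontal line, median, 30.5 and 24.0); right, the percent of all 17274 protein-coding genes with RYBP over the start in 4 classes of CpG count, with the members' counts above the bars.

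These sequences differ widely in CpG content within either class. Shown are the 250 bases before the start of Nup153 (chr13:46727850-46728099, minus strand) and Tnpo2 (chr8:85036643-85036892, plus strand), both under a RYBP peak, and of Xpo5 (chr17:46202561-46202810, plus strand) and Kpna7 (chr5:145009637-145009886, minus strand), both without a peak. Capitals mark CpG, at 37, 14, 33 and 3 places. Xpo5 thus had more CpG than Tnpo2 and no RYBP, whereas Tnpo2 had the widest RYBP peak of any member. Nup153, with the most CpG of the genes shown, had RYBP, and Kpna7, with the fewest, had none. These are single examples beside the rise of RYBP with CpG count over all genes given above.
Nup153: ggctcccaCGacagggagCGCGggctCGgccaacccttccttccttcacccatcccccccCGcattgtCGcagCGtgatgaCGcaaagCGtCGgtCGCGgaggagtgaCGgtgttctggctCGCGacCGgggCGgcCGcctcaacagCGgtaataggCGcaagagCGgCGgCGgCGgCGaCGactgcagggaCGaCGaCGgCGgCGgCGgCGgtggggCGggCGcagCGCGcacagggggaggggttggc
Tnpo2: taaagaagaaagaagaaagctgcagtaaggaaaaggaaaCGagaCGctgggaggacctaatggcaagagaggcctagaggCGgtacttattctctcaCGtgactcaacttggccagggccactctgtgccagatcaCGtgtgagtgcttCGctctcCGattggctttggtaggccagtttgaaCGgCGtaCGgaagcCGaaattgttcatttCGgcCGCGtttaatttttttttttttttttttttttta
Xpo5: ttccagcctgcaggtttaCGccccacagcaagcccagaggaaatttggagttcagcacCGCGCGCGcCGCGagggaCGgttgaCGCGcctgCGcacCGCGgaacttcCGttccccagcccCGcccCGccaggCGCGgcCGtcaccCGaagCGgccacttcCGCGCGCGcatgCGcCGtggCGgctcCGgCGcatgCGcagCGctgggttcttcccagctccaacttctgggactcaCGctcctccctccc
Kpna7: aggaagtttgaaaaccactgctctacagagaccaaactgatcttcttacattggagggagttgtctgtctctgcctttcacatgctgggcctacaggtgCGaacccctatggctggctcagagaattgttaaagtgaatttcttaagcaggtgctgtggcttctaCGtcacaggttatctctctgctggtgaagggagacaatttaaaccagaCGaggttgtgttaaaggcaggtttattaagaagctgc

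A set of 3 letter strings was searched in the 300-base promoters on both strands: CACGTG, the E-box of MYC, TTCCGC, whose reverse complement holds the GGAA of ETS sites, and GCGCGC. The last 2 can share the letters GC where they abut. CACGTG was present in 6 of 34 members, 17.6% (8.35% to 33.5%), against 8.01% of all promoters. TTCCGC was present in 15, 44.1% (28.9% to 60.5%), against 14.7%, and GCGCGC in 13, 38.2% (23.9% to 55.0%), against 18.2%. Among members with RYBP over the start these counts were 4, 8 and 6 of 14, and among those without it 2, 7 and 7 of 20. Among all protein-coding genes the shares were 11.4%, 20.0% and 35.2% with RYBP over the start and 6.61%, 12.5% and 11.3% without it. Each string holds at least 1 CpG, no allowance was made for the CpG content of the promoters, and a match is no binding site.

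Further H2AK119ub peaks lay between the 2 kb limit and 10 kb from members, mostly under neighbouring genes. Which gene a peak belongs to was not tested. Near Ipo13, a knockout peak at 8653 bp and a wild-type peak at 8564 bp had no annotated gene under them. Nup214 had the nearest, 2537 bp away in the knockout, under Fam78a, and 2357 bp away in the wild type, at its other end under Aif1l. Nup93 had a knockout peak at 2815 bp, under Slc12a3, and its nearest wild-type peak at 9873 bp. Xpo7 had peaks at 5346 bp in the knockout and 3251 bp in the wild type, both under Dok2. With flanks of 5 kb the mark was counted at 5 members in the knockout and at 5 in the wild type. The share of all protein-coding genes with such flanks is not given here, so these counts have no background beside them. Peaks of both genotypes stood within 10 kb of Kpnb1, under Tbkbp1, of Ipo9, under Shisa4, and of Nup62, under Il4i1. Tnpo3 had one under Irf5, a gene for an interferon regulatory factor, 4728 bp wide in the knockout and 1157 bp wide in the wild type. It lies on chromosome 6, where the median knockout peak was 1417.5 bp wide.

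Over all 43 members the median distance from the gene to the nearest H2AK119ub peak was 86663 bp in the knockout and 85200 bp in the wild type. Across all protein-coding genes these medians were 79554 and 59979 bp. Xpo1 lay farthest from the mark in the knockout, at 747287 bp, and stood 547134 bp from it in the wild type. The median distance to the nearest RYBP peak was 8376 bp for members and 20698 bp for all protein-coding genes.

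**Figure D5:**
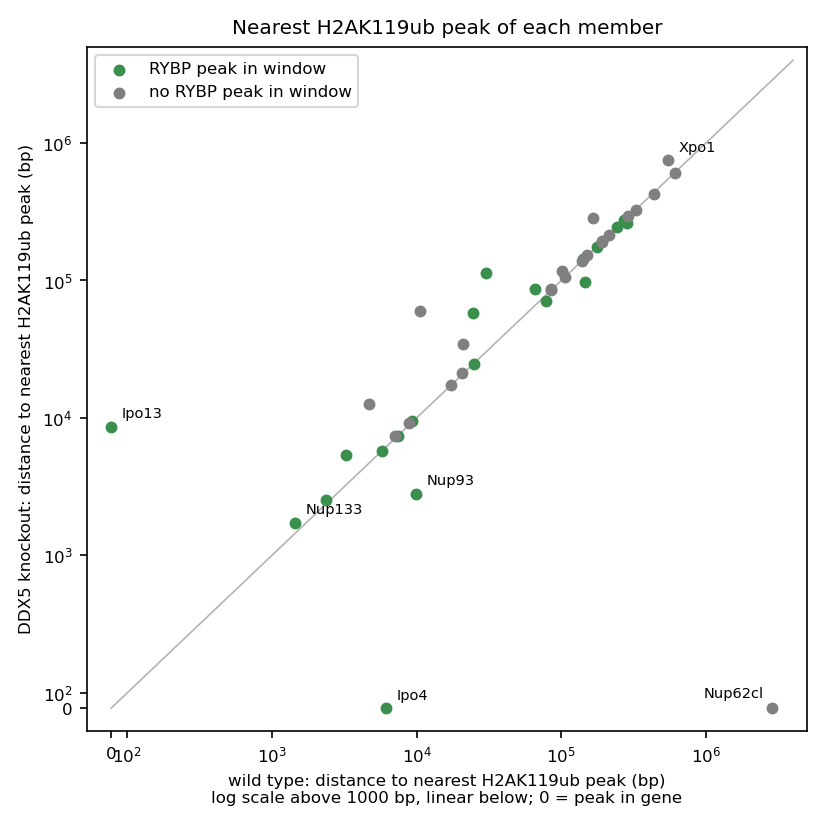
Distance from each of the 43 members to its nearest H2AK119ub peak in the DDX5 knockout (vertical axis, bp) and in the wild type (horizontal axis, bp), on log scales above 1000 bp; green points are members with RYBP in the window, and the line marks equal distance. Most points lie near the line. Ipo13, Ipo4 and Nup62cl, marked in a single genotype, stand away from it. So do some other members, such as Xpo5 (59500 bp in the knockout, 10627 bp in the wild type).

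Other genes of the pathway, outside the symbol rule, were examined from 3 lists. The mark was found at 0 of 30 genes in the knockout, against 23.6% of all protein-coding genes, and at 1 of 30 in the wild type, against 27.9%. RYBP was found at 9 of 30, near the 37.6% of all genes. It was present at 6 of 12 further pore genes, a number too small to set beside that share. Pom121, for a membrane nucleoporin, had 2737 bp of RYBP, with 0 bp of H2AK119ub in the knockout and 1487 bp in the wild type. Rae1, an mRNA export factor, had 1845 bp of RYBP, Nupl1, the remaining channel nucleoporin, 1591 bp, Ndc1, a membrane nucleoporin, 1479 bp, Seh1l of the outer ring 1398 bp and Ahctf1, which seeds pore assembly on chromatin, 1261 bp. None of the 6 Ran cycle genes, Ran, Rangap1, Ranbp1, Rcc1, Ranbp3 and Nutf2, had a peak of any library. Of 12 genes for other receptors and mRNA export, 3 had RYBP, namely the tRNA exportin gene Xpot (3013 bp), Pcid2 (2928 bp) and Snupn (939 bp), the import adaptor of small nuclear ribonucleoproteins.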

How the data were processed

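ChIP-seq peak lists of 3 libraries were analysed: H2AK119ub in DDX5 knockout cells, H2AK119ub in wild-type cells and RYBP in wild-type cells. The 2 input libraries were not analysed here. Per the submitters' processing notes, Bowtie2 version 2.2.5 and MACS version 1.4 were used with build mm10. What each tool did, how peaks were thresholded and whether input served as control were not given in the sources used here. Each deposited list belongs to 1 library, and the score column that the authors deposited holds 0 for every peak, so no height or significance of a peak was used. A library of lower depth or enrichment gives fewer and narrower peaks, which cannot be told apart from a genotype effect here.

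Starts were converted to positions counted from 1. The gene annotation was RefSeq's for GRCm38.p6, and starts, strands and promoter sequences from the RefSeq promoter table, using the most upstream start of each gene. Covered length is the number of base pairs of the window under peaks. Overlaps, distances and Wilson intervals were computed with Python 3.11.15, pandas 2.3.3 and scipy 1.17.1, and the overlap code was checked on simulated peaks. No test was run, since each group has 1 library.

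The members and lists were chosen with earlier results of these data known. Every member with H2AK119ub, every member with no peak and the 8 members with the most RYBP among those without the mark are named with values or as having none. The other RYBP members are given by role. Distances to neighbouring peaks and the genes under them were added after values had been seen. Alternatives changed the window, the overlap, the width limit, the joining of peaks and the chromosomes included.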

Additional observations from a re-analysis of the deposited data

How the results depend on the processing

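RYBP counts stayed within 1.5 times their reported values under all 10 alternatives, at 14 to 21 members with RYBP and 12 to 17 with RYBP and no H2AK119ub, while the H2AK119ub counts, being small, moved more. The lowest RYBP counts came from settings with fewer members. Values over all protein-coding genes are not given for the alternatives, so the members' counts and ratios have no background in this section. RYBP was at 14 of 34 in the 300-base promoter and at 14 of 36 without chromosomes 6 and 8. Without those chromosomes, RYBP with no H2AK119ub was at 12 of 36. With 5 kb flanks the mark was at 5 members in the knockout and 5 in the wild type, 3 in the wild type alone and 2 in both, and the ratio of covered length, knockout over wild type, was 0.65. With no flank, with at least 50% of the peak inside the window, and without chromosomes 6 and 8, 1 member was marked in the wild type and 0 in both, with ratios of 0.464, 0.464 and 0.431; Nup133 is the member lost. In the 300-base promoter, given for 34 members, 0 were marked in the knockout, 0 in the knockout alone, 1 in the wild type and 0 in both, and the ratio was 0. With peaks of at least 1 kb, 1 was marked in the knockout, 0 in the knockout alone, and the ratio was 0.0749, since the peaks at Ipo4 and Nup62cl are narrower. The ratio was 0.625 with 2 kb around gene ends only and 0.432 with peaks merged within 2 kb. At least 200 bp inside the window and equal numbers of the widest peaks changed none of these values. No paired analysis was possible because each group has 1 library. Peak lists without heights or depth limit every comparison of genotypes to presence and width.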
